A study of Rattus norvegicus with 6 samples.

Results

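Chaperones are proteins that help other proteins fold, assemble and avoid aggregation, and this account describes how their transcripts were recovered with each of a pair of oligonucleotide pools. The genes were chosen by name alone. A row of the deposited count table was taken when its gene name began as those of the heat shock proteins (Hspa, Hspb, Hspd, Hspe, Hsph and Hsp90), the J-domain proteins (Dnaja, Dnajb and Dnajc), the CCT chaperonin (Cct2 to Cct8 and Tcp1), prefoldin (Pfdn) or the BAG proteins (Bag1 to Bag6). This gave 95 of the 32883 rows in the table, with 94 different names. They were divided into 12 classes, and 74 of them had enough counts to be tested.

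All 6 libraries came from wild type GH4C1 cells, an established rat pituitary line that makes growth hormone and prolactin, and all cells had been treated with psoralen, which crosslinks paired strands of nucleic acid. The study sought RNAs that contact the long noncoding RNA Neat1, the scaffold of paraspeckles. RNA was pulled down with oligo pool A in 3 libraries and with oligo pool B in the other 3. The labels state neither the sequences of the pools nor whether either served as a control, and nothing says that the libraries of a pool came from separate cultures, so the p-values measure the spread between these libraries, which may be technical. Input RNA was not analysed here, so a higher value with a pool is a difference between pools and not an enrichment over the RNA of the cell. In such libraries, fewer cells with a transcript, less of it per cell and less of it retrieved cannot be told apart.

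Total counts per library lay between 1826390 and 3685899, and a count of 0 allows up to 3 counts, or between 0.814 and 1.64 CPM (the usual unit for counts scaled to library size), for counting error only. Pearson's r of log2 CPM across 11582 genes, which are not independent replicates, was at least 0.930 within a pool and at most 0.803 between pools. Of 5 markers of the line, all were detected, and their summed level was between 5772 and 6757 CPM with pool A and between 29315 and 36447 CPM with pool B, mostly from the granin gene Chgb. The list did not move as one: Chgb was higher with pool B, Prl and Chga were higher with pool A (log2 fold changes 0.83 and 0.63), and Gh1 and Pou1f1 did not pass. Of 7 markers of other pituitary cells, 2 (Fshb and Tshb) were at 0 in every library and the sum of the list reached at most 26.0 CPM with pool A and 55.6 CPM with pool B. Of that list Lhb, a gonadotroph hormone gene, was higher with pool B (log2 fold change -1.68, edgeR adjusted p 1.99e-05), and whether this bears on the chaperone genes was not tested. The share of counts on chaperone genes was 0.797% ± 0.027 (SD, n = 3) with pool A, and the pool B libraries gave 0.739% ± 0.012 (SD, n = 3).

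The classes work together. HSP70 proteins bind unfolded stretches of protein in a cycle driven by ATP. J-domain proteins bring clients to HSP70 and stimulate its ATPase, while HSP110 and BAG proteins release the nucleotide and so reset the cycle. HSP90 receives partly folded clients such as kinases and steroid receptors, prefoldin hands new actin and tubulin to the ring-shaped CCT chaperonin, and small heat shock proteins hold unfolded proteins without ATP. Pituitary cells that secrete hormones rely in addition on the chaperones of the endoplasmic reticulum (ER). On stress, many cytosolic members are induced by heat shock factor 1 and many ER members by the unfolded protein response.

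Some members carry the sequence motifs of these responses at their start, and those promoters are shown because the results compare genes that share them; the motifs were chosen after values had been seen, and a match is only a description. The windows run from 250 bases before to 50 bases after the annotated start, from RefSeq on GRCr8. Of the 94 names, 77 matched a window. Members were given a single window per name, while the whole set of windows was limited neither in that way nor to tested genes. Shares of members and of the whole set are therefore over unlike sets. The ER stress response element was searched on both strands as CCAAT and CCACG with 9 bases of any kind between them. It stood in 3 of the 77 windows (3.90%), those of Hspa5, Hsp90b1 and Dnajc3, against 0.0657% of the 33469 windows in the whole set. Capitals mark the matches in these windows, written 5′ to 3′ along the gene: Hspa5 at chr3:38452766-38453065 on the plus strand, Hsp90b1 at chr7:23012244-23012543 on the minus strand and Dnajc3 at chr15:102432417-102432716 on the plus strand.
Hspa5: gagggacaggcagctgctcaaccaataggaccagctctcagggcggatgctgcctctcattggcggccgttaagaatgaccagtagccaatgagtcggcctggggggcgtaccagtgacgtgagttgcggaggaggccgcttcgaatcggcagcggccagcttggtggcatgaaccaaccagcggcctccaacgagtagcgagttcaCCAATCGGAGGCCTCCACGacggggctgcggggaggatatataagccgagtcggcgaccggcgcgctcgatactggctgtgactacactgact
Hsp90b1: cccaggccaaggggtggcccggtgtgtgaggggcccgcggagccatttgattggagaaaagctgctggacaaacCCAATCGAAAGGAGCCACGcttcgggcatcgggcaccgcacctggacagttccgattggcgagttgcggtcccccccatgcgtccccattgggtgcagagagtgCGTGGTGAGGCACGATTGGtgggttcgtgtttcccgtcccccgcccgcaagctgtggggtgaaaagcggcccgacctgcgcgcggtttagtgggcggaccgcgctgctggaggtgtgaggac
Dnajc3: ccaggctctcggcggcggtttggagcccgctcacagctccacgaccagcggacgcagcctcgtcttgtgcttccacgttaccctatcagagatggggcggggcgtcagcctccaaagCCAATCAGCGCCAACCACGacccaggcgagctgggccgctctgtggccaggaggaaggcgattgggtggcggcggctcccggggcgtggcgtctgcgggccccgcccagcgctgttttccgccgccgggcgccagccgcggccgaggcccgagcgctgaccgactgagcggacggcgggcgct

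The heat shock element was searched on both strands as 3 alternating units, GAA, TTC and GAA, with 2 bases of any kind between neighbours. It stood in 6 of the 77 windows (7.79%), those of Cct4, Dnaja1, Hspa8, Hspd1, Hspe1 and Hsph1, against 0.798% of all windows. Of these 6 genes, 1 (Hspd1) passed the test between the pools, where 40.6% of all tested genes did, and nothing is read from so few. The shorter form of 2 units, GAA and TTC, which every match of the longer form contains, stood in 15 of the 77 windows (19.5%) against 8.59% of all windows. Hspd1 and Hspe1 lie head to head, and their windows share 211 bases on opposite strands. The same run of letters holds 2 overlapping matches in each. Hspd1 is at chr9:64083988-64084287 on the minus strand and Hspe1 at chr9:64084077-64084376 on the plus strand.
Hspd1: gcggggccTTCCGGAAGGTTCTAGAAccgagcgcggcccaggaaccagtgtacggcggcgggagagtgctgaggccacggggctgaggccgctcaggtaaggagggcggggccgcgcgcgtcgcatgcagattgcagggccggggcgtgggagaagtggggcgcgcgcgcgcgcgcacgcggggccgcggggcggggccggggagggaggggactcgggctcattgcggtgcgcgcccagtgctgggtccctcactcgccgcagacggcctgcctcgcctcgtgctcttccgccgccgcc
Hspe1: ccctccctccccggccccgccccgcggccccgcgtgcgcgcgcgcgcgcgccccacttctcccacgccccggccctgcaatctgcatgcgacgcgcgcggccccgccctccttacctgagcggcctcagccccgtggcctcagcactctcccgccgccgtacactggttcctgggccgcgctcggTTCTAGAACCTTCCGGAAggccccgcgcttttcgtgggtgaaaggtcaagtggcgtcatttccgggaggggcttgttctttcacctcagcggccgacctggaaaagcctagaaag

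Recovery with pool A was compared with recovery with pool B by edgeR's quasi-likelihood test on each gene, and Benjamini-Hochberg adjustment ran over the whole table. Of the 74 tested members, 35 (47.3%) differed at an adjusted p under 0.05, against 40.6% of all 11582 tested genes. With pool A 13 members (17.6%) were higher, against 18.6% of all tested genes, and with pool B 22 (29.7%), against 22.0%. The CPM ranges of the pools did not overlap for 40 members (54.1%), against 49.1% of all tested genes. These ranges, like all CPM values below, use total counts, which is not the scaling of the test. Called differences above 2-fold were found for 19 members (25.7%, against 25.4%) and above 4-fold for 9 (12.2%, against 7.82%). As a whole the chaperone genes therefore stood near the background, and what follows concerns which of them differed. The median log2 fold change, pool A over pool B throughout, was -0.037 for the members and 0.015 for all tested genes. The split of directions depended on the scaling: pool A held 37.1% of the called members as reported, 31.4% when only total counts set the scale and 52.8% under upper-quartile factors. Over all tested genes its share of the calls was 45.8%, 36.9% and 52.8%. The total-count and upper-quartile scalings moved the median of all genes by -0.14 and 0.10.

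Of the 21 members that were not tested, 9 were at 0 in every library: both rows named Cct8l1, Dnajb8, Dnajc5b, Dnajc5g, Hspa1b, Hspb2, Hspb3 and Hspb8. The other 12 (Cct6b, Dnajb3, Dnajc12, Dnajc15, Dnajc22, Dnajc30, Hspa12a, Hspa12b, Hspa1l, Hspa2, Hspb1 and Hspb9) reached at most 17 counts in a library. Hspa1b encodes the stress-induced cytosolic HSP70 and has a near-identical neighbouring copy, and how reads of such copies were counted is not stated, so its count is uncertain.

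**Figure D1:**
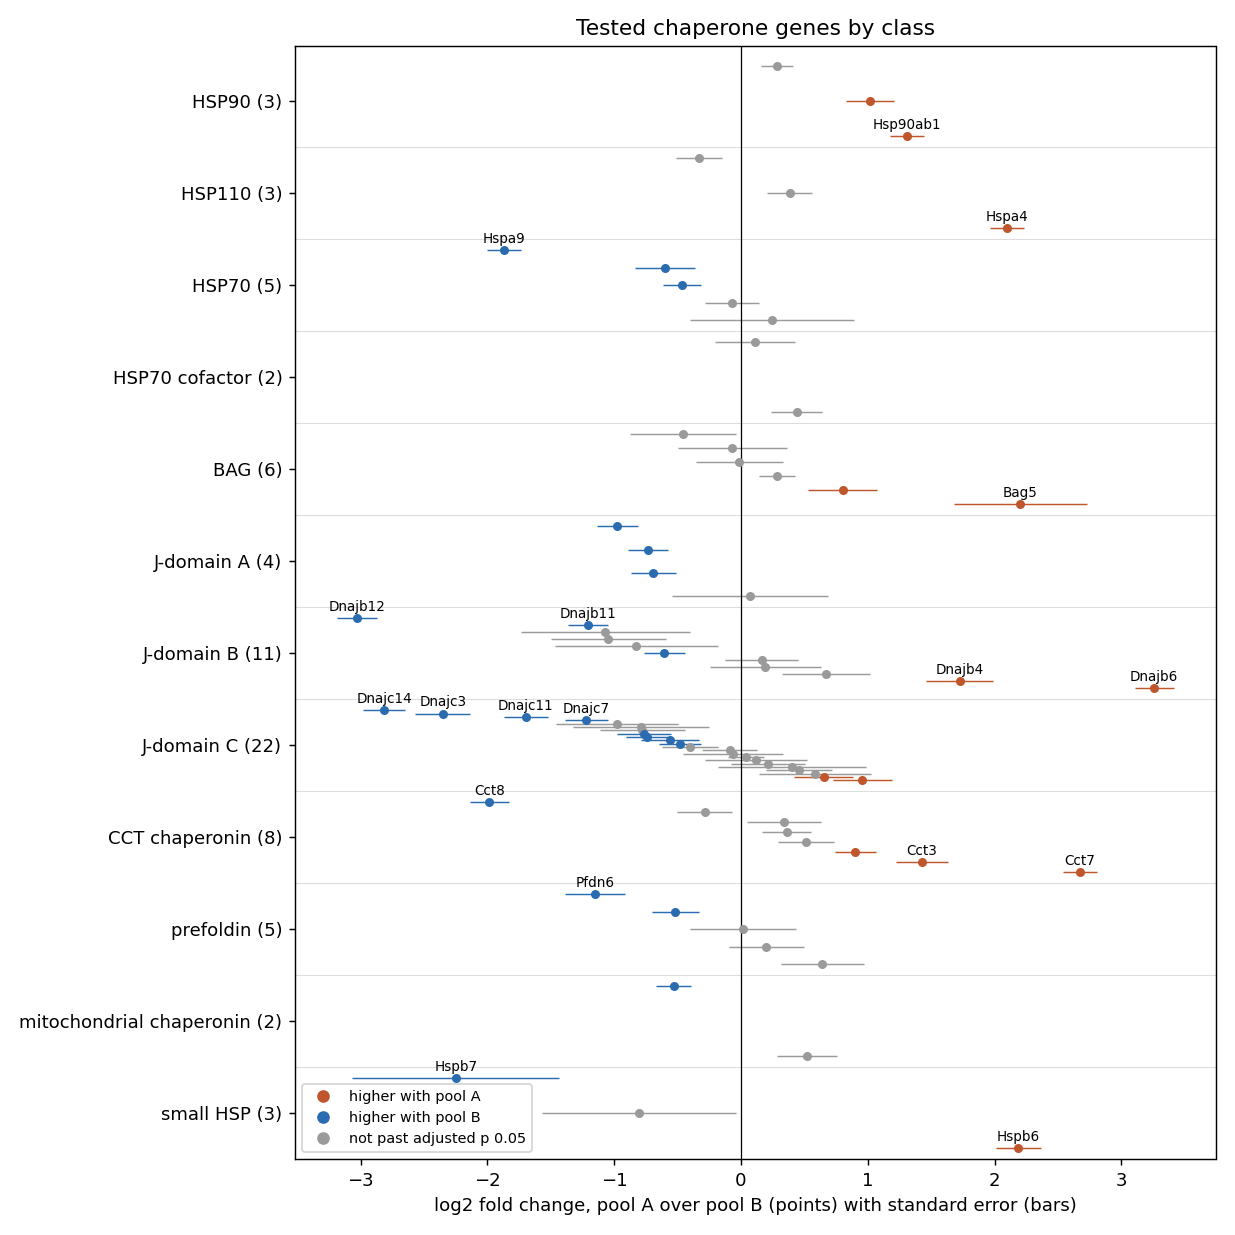
Log2 fold changes of the 74 tested chaperone genes, pool A over pool B (horizontal axis), with standard errors as bars, one row of points per class with the number of tested genes in parentheses. Most classes hold genes on both sides of 0, from Dnajb12 at -3.03 to Dnajb6 at 3.26, and colours mark the genes past an adjusted p of 0.05. The class drawn as HSP70 cofactor holds Hspbp1 and Hspbap1, of which the latter is named for a small heat shock protein.

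HSP90 transcripts were higher with pool A for both cytosolic forms, 2 of 3 tested genes, against 18.6% of all tested genes. Hsp90ab1, the constitutive cytosolic HSP90, had 1715, 1406 and 1546 CPM in the pool A libraries and 747, 654 and 684 CPM in the pool B libraries. Every pool A library lay above every pool B library, and the log2 fold change was 1.31 ± 0.13 (SE, edgeR adjusted p 5.16e-09). Hsp90aa1, the stress-inducible form, had 73.5, 89.0 and 81.9 CPM with pool A and 46.7, 40.5 and 45.4 CPM with pool B. It differed by 1.02 ± 0.19 (SE, edgeR adjusted p 7.38e-05), again without overlap. Hsp90b1, the ER form also called Grp94, had 352, 335 and 386 CPM with pool A and 354, 314 and 305 CPM with pool B. Its ranges overlapped, and its log2 fold change was 0.28 ± 0.13 (SE, edgeR adjusted p 0.0792). It passed the threshold without replicate 1 of pool B (0.0476), with upper-quartile factors (0.0161) and by DESeq2's Wald test (0.0319). The alternatives spanned 0.0161 to 1.0. Such ranges, here and below, include a test against a 1.5-fold difference, a stricter question than whether the pools differ. Counts of Hsp90ab1 per count of Hsp90b1, a ratio within a library that no scaling changes, were 4.87, 4.20 and 4.0 with pool A and 2.11, 2.08 and 2.24 with pool B.

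Of the 3 HSP110 genes, 1 was higher with pool A and none with pool B, against 18.6% and 22.0% of all tested genes. That gene, Hspa4, encodes a nucleotide exchange factor of HSP70, and its level was 1065, 1256 and 1314 CPM with pool A against 346, 306 and 287 CPM with pool B. That is a 4.28-fold difference, a log2 fold change of 2.10 ± 0.14 (SE, edgeR adjusted p 9.24e-13). Its relatives did not pass: Hsph1, the heat-inducible HSP110, had 92.8, 98.1 and 109 CPM with pool A and 102, 86.5 and 65.8 CPM with pool B (log2 fold change 0.38 ± 0.17, SE). Hspa4l had 60.5, 50.6 and 69.3 CPM with pool A and 77.0, 76.7 and 96.1 CPM with pool B (-0.33 ± 0.18, SE). The pool B libraries of Hspa4l all lay above the pool A libraries, but the edgeR adjusted p was 0.160. Hsph1 had an edgeR adjusted p of 0.0834, which fell to 0.0251 without replicate 1 of pool B (range over the alternatives 0.0251 to 0.900).

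Of the 10 HSP70 rows, 5 were tested, 3 were higher with pool B and none passed in favour of pool A, against 22.0% and 18.6% of all tested genes. Hspa9, the mitochondrial HSP70 that pulls imported proteins into the matrix, had 149, 169 and 152 CPM with pool A and 635, 611 and 657 CPM with pool B. The libraries of each pool lay close together and far from the other pool, a log2 fold change of -1.87 ± 0.13 (SE, edgeR adjusted p 6.93e-12). Counts of Hspa4 per count of Hspa9 were 7.13, 7.42 and 8.64 with pool A and 0.545, 0.501 and 0.436 with pool B, so the balance of this pair differed by more than 10 times between the pools. Hspa5, the ER HSP70 known as BiP, had 257, 193 and 217 CPM with pool A and 410, 277 and 330 CPM with pool B, ranges that did not overlap. Its log2 fold change was -0.46 ± 0.15 (SE, edgeR adjusted p 0.0156). That call was lost without pool A replicate 2 (0.103) or 3 (0.0796), without pool B replicate 1 (0.135) and with upper-quartile factors (0.0571). The range over the alternatives was 0.00265 to 0.810, with the upper end from the 1.5-fold test. Hspa14, an HSP70 of the ribosome-associated complex, was the third, with 21.2, 30.5 and 37.0 CPM against 43.6, 56.9 and 47.7 CPM, at -0.60 ± 0.24 (SE) and an edgeR adjusted p of 0.0458. That call was lost without replicate 1 of pool A (0.231), pool A replicate 2 (0.0772), pool B replicate 2 (0.148) or replicate 3 of pool B (0.0862), in a range of 0.0172 to 0.499. Hspa8, the constitutive cytosolic HSP70, did not pass: it had 74.1, 51.4 and 74.7 CPM with pool A and 94.8, 50.4 and 84.7 CPM with pool B (-0.070 ± 0.209, SE). Hspa13 had at most 40 counts in a library and a log2 fold change of 0.24 ± 0.65 (SE).

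**Figure D2:**
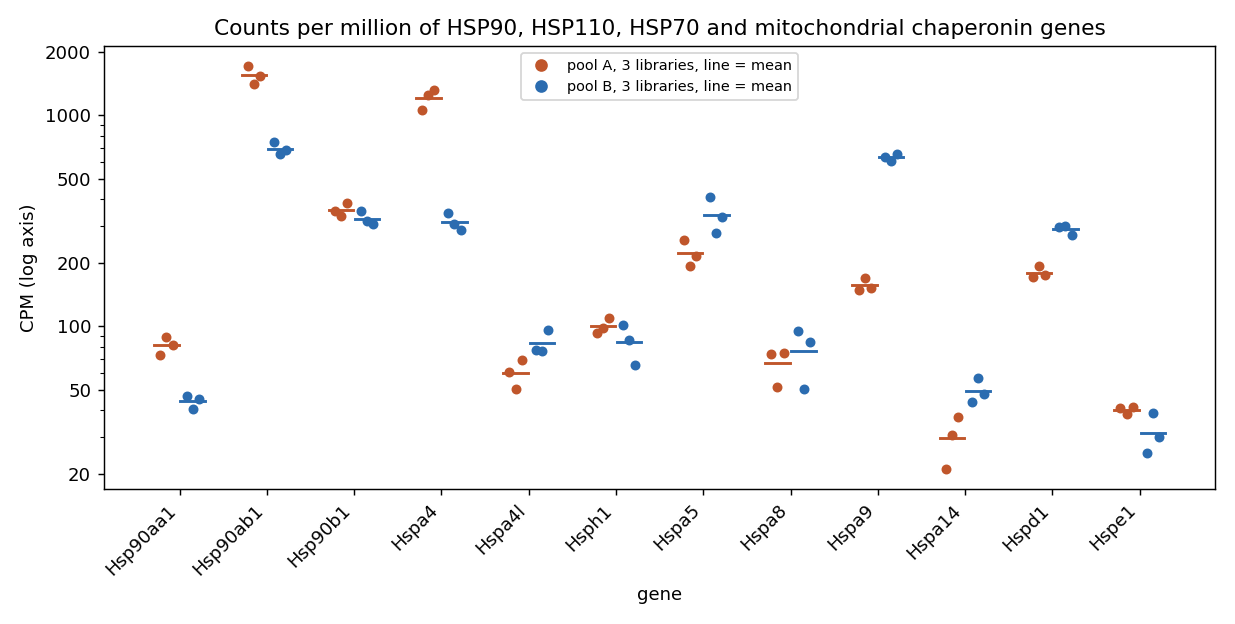
CPM (log axis) of HSP90, HSP110, HSP70 and mitochondrial chaperonin genes, with 1 point per library and a line at the mean of 3 libraries, pool A left and pool B right for each gene. Hsp90ab1 and Hspa4 are higher with pool A, Hspa9 is higher with pool B, and the points of Hspa8 and Hsp90b1 overlap.

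The mitochondrial chaperonin is a barrel of Hspd1 (HSP60) closed by a lid of Hspe1 (HSP10), whose genes share the start region printed above. Hspd1 had 171, 193 and 175 CPM with pool A and 294, 300.0 and 271 CPM with pool B. It was higher with pool B without overlap, with a log2 fold change of -0.53 ± 0.14 (SE, edgeR adjusted p 0.00244). Hspe1 had 41.0, 38.4 and 41.4 CPM with pool A and 25.2, 38.9 and 29.9 CPM with pool B. Its ranges overlapped through pool B replicate 2, and its log2 fold change was 0.52 ± 0.24 (SE, edgeR adjusted p 0.0819). Without that library the adjusted p was 0.0445, in a range of 0.0353 to 0.629 over the alternatives. Counts of Hspe1 per count of Hspd1 were 0.240, 0.198 and 0.236 with pool A and 0.0857, 0.130 and 0.111 with pool B, ranges that did not overlap. In RefSeq the pair overlap on opposite strands. The libraries were strand-specific per the labels, and whether counting used the strand is not stated.

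The 6 tested BAG genes gave 2 calls, both in favour of pool A, where 40.6% of all tested genes were called. Bag5, which carries several BAG domains, had counts of 52, 32 and 45 with pool A and 5, 10 and 8 with pool B. No libraries overlapped, and the log2 fold change was 2.20 ± 0.52 (SE, edgeR adjusted p 0.00122). Bag1, a nucleotide exchange factor that also binds the proteasome, had 30.4, 26.9 and 38.0 CPM with pool A and 16.7, 21.4 and 22.3 CPM with pool B. The difference on the log2 scale was 0.80 ± 0.27 (SE, edgeR adjusted p 0.0184), and it was lost with total counts alone (0.0594), without replicate 3 of pool A (0.0716) or without replicate 1 of pool B (0.0715), in a range of 0.00791 to 0.235. Bag6, which guards tail-anchored membrane proteins, had 185, 140 and 182 CPM with pool A and 149, 163 and 151 CPM with pool B. Those ranges overlapped (0.28 ± 0.14, SE, edgeR adjusted p 0.125). Bag2, Bag3 and Bag4 had log2 fold changes of -0.069, -0.46 and -0.012 and did not pass. Neither did Hspbp1, an exchange factor of HSP70, at 0.11 nor Hspbap1, whose product is named for its association with the small heat shock protein Hspb1, at 0.44. Hspbap1 had 69.5, 58.9 and 71.8 CPM with pool A and 41.6, 69.0 and 54.1 CPM with pool B, and it passed without replicate 2 of pool B (edgeR adjusted p 0.0316, range 0.0299 to 0.785).

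J-domain proteins form the largest group, with 45 rows and 37 tested. Among them 4 favoured pool A and 14 favoured pool B. By class, 0 and 3 of the 4 tested genes of class A, 2 and 3 of the 11 of class B and 2 and 8 of the 22 of class C were higher with pool A and pool B, against 18.6% and 22.0% of all tested genes. The class medians of the log2 fold change were -0.71, -0.60 and -0.44, against 0.015 for all tested genes. These counts describe the classes and were not tested as sets.

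The J-domain genes that differed most had opposite signs within class B. Dnajb6, which keeps polyglutamine proteins from aggregating, had 424, 484 and 474 CPM with pool A and 60.7, 50.4 and 48.0 CPM with pool B. This 9.58-fold difference, with the highest log2 fold change of any tested member at 3.26 ± 0.15 (SE), had an edgeR adjusted p of 1.49e-15. Dnajb12, an ER membrane protein that works in the degradation of misfolded membrane proteins, had 52.1, 39.9 and 47.4 CPM with pool A and 363, 473 and 431 CPM with pool B. The difference on the log2 scale was the lowest of the tested members, -3.03 ± 0.16 (SE), with an edgeR adjusted p of 8.95e-15. Counts of Dnajb6 per count of Dnajb12 were 8.15, 12.1 and 10.01 with pool A and 0.167, 0.107 and 0.111 with pool B. Dnajb4, a cytosolic partner of HSP70, was the other class B gene higher with pool A, at 52.9, 39.5 and 41.4 CPM against 16.4, 12.6 and 15.5 CPM (1.72 ± 0.26, SE, edgeR adjusted p 5.26e-06).

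Several J-domain proteins of the ER serve BiP, and 2 of the ER lumen were higher with pool B. Dnajc3, also known as P58IPK, had 16.3, 24.9 and 35.8 CPM with pool A and 127, 133 and 169 CPM with pool B. It was 5.10-fold higher with pool B (-2.35 ± 0.22, SE, edgeR adjusted p 9.26e-10). Dnajb11, also called ERdj3, had 61.6, 68.4 and 66.5 CPM with pool A and 169, 183 and 151 CPM with pool B (log2 fold change -1.21 ± 0.16, SE, edgeR adjusted p 4.04e-07). Dnajc1, a J-domain protein of the ER membrane that touches ribosomes, went the other way with 58.6, 62.1 and 47.7 CPM against 26.6, 29.0 and 40.5 CPM (0.96 ± 0.23, SE, edgeR adjusted p 0.00151). Dnajb9 and Dnajc10, the ERdj4 and ERdj5 proteins of ER quality control, had log2 fold changes of 0.67 ± 0.35 and 0.46 ± 0.26 (SE) and did not pass. Of the genes with an ER stress element in the printed windows, Dnajc3 and Hspa5 were higher with pool B. So were 22.0% of all tested genes. The call of Hspa5 rests on single libraries and on the scaling, as given above. Hsp90b1 did not pass as reported, and its log2 fold change had the opposite sign. It was higher with pool A under some alternatives, as given above. Counts of Hspa5 per count of Hsp90b1 were 0.731, 0.578 and 0.561 with pool A and 1.16, 0.882 and 1.08 with pool B.

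Dnajc14 and Dnajc11 were also higher with pool B by more than 2-fold. Dnajc14, an ER membrane protein that assists the transport of receptors, had 35.3, 27.3 and 36.1 CPM with pool A and 223, 258 and 289 CPM with pool B. The difference on the log2 scale was -2.81 ± 0.17 (SE, edgeR adjusted p 1.51e-13). Dnajc11, a protein of the mitochondrial membranes tied to cristae, had 38.0, 34.0 and 53.6 CPM with pool A and 154, 149 and 146 CPM with pool B. No libraries overlapped, and it differed by -1.70 ± 0.17 (SE, edgeR adjusted p 6.86e-09). Dnaja3, the class A protein of the mitochondrial matrix, differed by -0.73 ± 0.16 (SE, edgeR adjusted p 0.000435). The import-motor protein gene Dnajc19 did not pass, at 0.12 ± 0.40 (SE).

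Further J-domain genes were called in favour of pool B. Dnajc7, a protein with TPR repeats that binds both HSP70 and HSP90, had 97.4, 71.2 and 83.1 CPM with pool A and 218, 174 and 255 CPM with pool B (-1.22 ± 0.17, SE, edgeR adjusted p 8.92e-07). Dnaja2, a general HSP70 partner, had 142, 92.5 and 102 CPM with pool A and 270, 231 and 234 CPM with pool B (-0.97 ± 0.16, SE, edgeR adjusted p 1.61e-05). Dnaja4, Dnajb2 and Dnajc5 were higher with pool B by between 1.52 and 1.67 times. Dnajc5 encodes the cysteine string protein of secretory vesicles, and its values of 69.2, 57.7 and 69.0 CPM with pool A all lay below 113, 146 and 105 CPM with pool B. Dnajc13, an endosomal protein, had the most counts of class C and did not differ past the threshold. Its levels were 174, 189 and 191 CPM with pool A and 179, 194 and 222 CPM with pool B (0.040 ± 0.141, SE). The stress-inducible Dnajb1 and the general partner Dnaja1 had at most 26 counts in any library. Dnajb1 had 4.07, 1.98 and 4.39 CPM with pool A and 1.70, 13.7 and 9.84 CPM with pool B and did not pass (-1.07 ± 0.67, SE, edgeR adjusted p 0.215), although it did without replicate 1 of pool B (0.0446, range 0.0446 to 0.630).

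Some J-domain genes changed call when a library was left out. Dnajc2, the J-domain partner of Hspa14 at the ribosome, had 99.6, 94.9 and 108 CPM with pool A and 180, 119 and 165 CPM with pool B (-0.48 ± 0.16, SE, edgeR adjusted p 0.0194). Leaving out any library but pool B replicate 2 raised its adjusted p above the threshold, to between 0.0524 and 0.120. Upper-quartile factors lost the call too (0.0651), and the range over the alternatives was 0.00281 to 0.758. Dnajc21, a factor of ribosome assembly, had 52.1, 31.6 and 36.7 CPM with pool A and 71.2, 66.3 and 89.7 CPM with pool B, where it was higher (-0.76 ± 0.21, SE, edgeR adjusted p 0.00510), but not past the threshold without replicate 3 of pool B (0.0550, range 0.00117 to 0.224). Dnajc27, which carries a small GTPase domain, had 33.6, 45.5 and 31.7 CPM with pool A and 64.8, 69.0 and 47.7 CPM with pool B. The ranges were apart, with an edgeR adjusted p of 0.0496 (-0.56 ± 0.23, SE). It was lost without pool A replicate 1 (0.143) or 3 (0.202) and without pool B replicate 1 (0.137) or 2 (0.156). With every library kept, DESeq2 size factors in edgeR (0.0590), upper-quartile factors (0.113) and DESeq2's Wald test (0.0771) lost it too. So did leaving out the filter (0.0543) or asking for at least 10 counts in every library (0.0504). The range was 0.0124 to 0.572. Dnajc18 was the 1 called member whose CPM ranges overlapped on total counts. It had 37.7, 58.1 and 46.1 CPM with pool A and 33.7, 37.8 and 28.8 CPM with pool B. It was higher with pool A by 0.65 ± 0.24 (SE, edgeR adjusted p 0.0279), but not past the threshold without replicate 2 of pool A (0.183), pool B replicate 1 (0.0568) or replicate 3 of pool B (0.115), in a range of 0.0114 to 0.412. Dnajb7 had 2.17, 9.10 and 14.7 CPM with pool A and 20.1, 20.3 and 17.8 CPM with pool B. For Dnajc28 the values were 7.87, 13.8 and 18.8 CPM and 25.6, 23.0 and 27.2 CPM. Every pool B library of both genes lay above pool A, yet they did not pass, at -1.05 ± 0.46 and -0.78 ± 0.33 (SE), but did without replicate 3 of pool A (edgeR adjusted p 0.0131 and 0.0331, in ranges of 0.0131 to 0.299 and 0.0330 to 0.312). The remaining tested genes, Dnajb5, Dnajb13, Dnajb14, Dnajc4, Dnajc6, Dnajc8, Dnajc9, Dnajc16, Dnajc17, Dnajc24 and Dnajc25, did not pass, with log2 fold changes from -0.98 for Dnajc24 to 0.59 for Dnajc4.

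**Figure D3:**
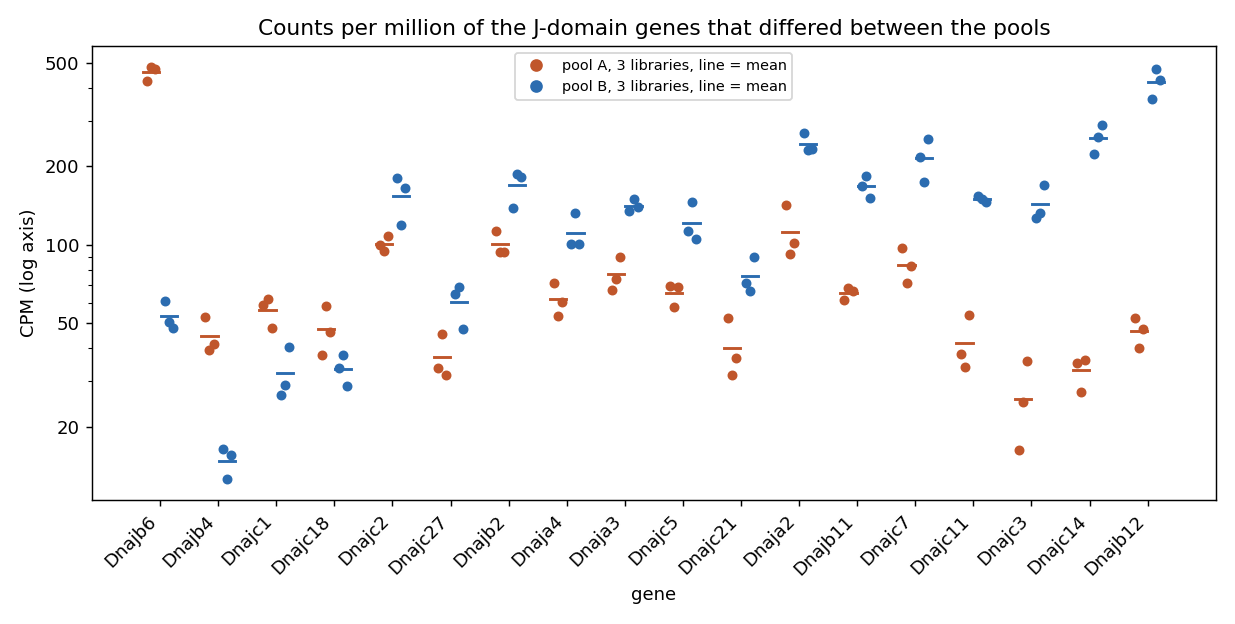
CPM (log axis) of the 18 J-domain genes past an adjusted p of 0.05, ordered by log2 fold change, with 1 point per library and a line at the mean of 3 libraries. The 4 genes at the left are higher with pool A and the other 14 are higher with pool B, with overlapping points for Dnajc18 alone.

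The CCT chaperonin is a ring of different subunits, which cells need in equal numbers to fold actin and tubulin. Its transcripts were not recovered alike. Of 8 tested genes, 3 were higher with pool A, 1 was higher with pool B and 4 did not pass. The 4 calls of 8 stand near the 40.6% called over all tested genes, and their log2 fold changes spanned 4.66. Cct7 had 775, 688 and 706 CPM with pool A and 125, 130 and 121 CPM with pool B. This 6.38-fold difference (2.67 ± 0.14, SE) had an edgeR adjusted p of 7.55e-15. Cct8, the subunit gene with the opposite call, had 58.6, 59.7 and 53.3 CPM with pool A and 263, 250.2 and 239 CPM with pool B. It was 3.95-fold higher with pool B (-1.98 ± 0.15, SE, edgeR adjusted p 2.73e-11). Counts of Cct7 per count of Cct8 were 13.2, 11.5 and 13.2 with pool A and 0.476, 0.519 and 0.509 with pool B, so the same pair was found in opposite proportions with the pools.

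The other CCT subunits lay between these. Cct3 had 149, 111 and 97.9 CPM with pool A and 63.7, 42.7 and 40.5 CPM with pool B (1.43 ± 0.21, SE, edgeR adjusted p 2.06e-06). Cct5 had 210, 176 and 149 CPM with pool A and 99.2, 119 and 100.3 CPM with pool B (0.90 ± 0.16, SE, edgeR adjusted p 5.48e-05). Neither gene had overlapping libraries, whereas the other 4 did. Cct4 had 55.6, 56.6 and 46.7 CPM with pool A and 50.4, 36.7 and 35.9 CPM with pool B (log2 fold change 0.51 ± 0.22, SE). Its edgeR adjusted p was 0.0648, and it passed without replicate 3 of pool A (0.0306) or replicate 1 of pool B (0.0286), in a range of 0.0264 to 0.654. Cct6a had 65.4, 73.2 and 72.5 CPM with pool A and 47.7, 60.2 and 73.8 CPM with pool B, and its difference of 0.36 ± 0.19 (SE) did not pass. Tcp1, the founding subunit, had 22.2, 23.3 and 27.9 CPM with pool A and 28.3, 16.4 and 18.5 CPM with pool B (0.34 ± 0.29, SE). For Cct2 the values were 57.2, 56.2 and 37.3 CPM with pool A and 64.1, 56.9 and 82.9 CPM with pool B (-0.29 ± 0.22, SE). For the subunits that did not pass, intervals of 2 standard errors hold no difference close to those of Cct7 or Cct8.

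**Figure D4:**
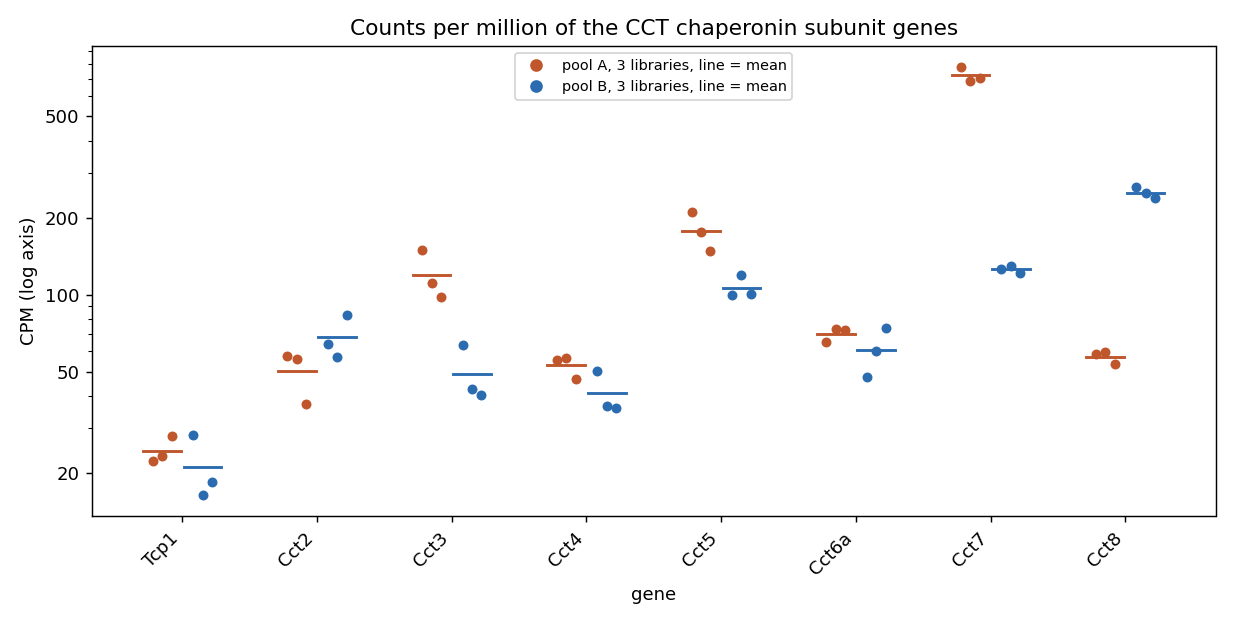
CPM (log axis) of the 8 tested CCT chaperonin genes, with 1 point per library and a line at the mean of 3 libraries, pool A left and pool B right for each gene. Cct7, Cct3 and Cct5 are higher with pool A and Cct8 is higher with pool B, while the points of Tcp1, Cct2, Cct4 and Cct6a overlap.

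Prefoldin, the complex that delivers actin and tubulin to CCT, gave 2 calls of 5, both in favour of pool B, a share near the 40.6% of all tested genes. Pfdn6 had 30.9, 24.9 and 32.9 CPM with pool A and 77.0, 46.0 and 93.4 CPM with pool B. Its pool B libraries were spread widely but all lay above pool A (-1.15 ± 0.24, SE, edgeR adjusted p 0.000257). Pfdn5, a subunit also known as a binder of the Myc protein, had 55.3, 44.7 and 74.98 CPM with pool A and 92.4, 88.2 and 95.0 CPM with pool B (-0.52 ± 0.18, SE, edgeR adjusted p 0.0254). That call was lost without pool A replicate 1 (0.0747) or 2 (0.166) and without pool B replicate 1 (0.0563) or 3 (0.0833). Upper-quartile factors lost it too (0.0725), and the range was 0.00892 to 0.665. Pfdn1 had 19.8, 18.2 and 28.5 CPM with pool A and 10.6, 16.4 and 20.1 CPM with pool B, and did not pass at 0.64 ± 0.33 (SE). For Pfdn2 the values were 17.1, 22.9 and 33.3 CPM with pool A and 27.3, 25.7 and 17.0 CPM with pool B (0.20 ± 0.30, SE). Pfdn4 had 14.7, 15.4 and 7.84 CPM with pool A and 8.52, 21.4 and 12.9 CPM with pool B (0.015 ± 0.419, SE), so these 3 genes overlapped between the pools.

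Small heat shock proteins had few counts in most cases, and 3 of 8 rows were tested, with 1 call in each direction, against 18.6% and 22.0% of all tested genes. Hspb6, a small heat shock protein best known from muscle, had 135, 129 and 168 CPM with pool A and 34.1, 40.0 and 31.0 CPM with pool B. It was 4.55-fold higher with pool A (2.19 ± 0.18, SE, edgeR adjusted p 6.89e-11). In RefSeq, Hspb6 overlaps Lin37 on the opposite strand, and Lin37 had means of 80.8 CPM with pool A and 36.5 CPM with pool B. Whether reads of this pair were separated was not tested. Hspb7 had counts of 4, 7 and 0 with pool A and 16, 9 and 25 with pool B. The difference on the log2 scale was -2.25 ± 0.82 (SE, edgeR adjusted p 0.0289), and the call was lost when any library but pool A replicate 2 was left out (0.0516 to 0.172). The fold change was -3.30 without pool A replicate 2 and -1.61 without pool A replicate 3. Hspb11, whose product is a subunit of intraflagellar transport despite its name, had at most 13 counts and did not pass. Hspb1, the widely expressed Hsp27, had counts of 2, 1 and 0 with pool A and 0 in every pool B library.

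Overlap with a neighbour concerned several other members. In RefSeq on GRCr8, 38 of the 74 tested members overlap another annotated gene and 18 overlap a protein-coding gene, among them 7 of the 35 called members. Cct8 overlaps Usp16 on the opposite strand, whose means were 70.9 CPM with pool A and 121 CPM with pool B. Dnajc14 overlaps Tmem198b and Dnajc7 overlaps Nkiras2, and those partners had at most 12.8 CPM in the mean of a pool. Dnajc27 overlaps Adcy3, which had means of 30.5 CPM with pool A and 53.6 CPM with pool B. Hspa14 overlaps Msantd7 on the same strand, and no level is given for that partner. Of members that did not pass, Dnajc28 overlaps Son and Dnajb7 overlaps Xpnpep3, both on the opposite strand. Son had means of 528 and 269 CPM with pools A and B, and Xpnpep3 had 43.4 and 39.1 CPM. Whether reads of these pairs were separated was not tested.

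The wider folding machinery was described with lists of genes outside the name rule. Of 22 co-chaperones of HSP90 and HSP70, all were tested, 6 favoured pool A and 7 favoured pool B, against 18.6% and 22.0% of all tested genes (edgeR's quasi-likelihood test, adjusted over all genes). Fkbp5, an immunophilin of steroid receptor complexes that glucocorticoids induce, had a log2 fold change of -3.09. Unc45a, a myosin chaperone that binds HSP90, differed by 1.70, and Ahsa2, related to the HSP90 activator Aha1, by -1.69. Of 12 partners of CCT and prefoldin, 3 favoured pool A and 2 favoured pool B, against the same shares. The phosducin-like protein gene Pdcl3, which acts on CCT, differed by -2.39 and its relative Pdcl by -1.47, while the tubulin cofactor gene Tbcc differed by 1.99. Both lists held calls in each direction.

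ER and mitochondrial folding genes were also divided. Of 18 ER folding genes, 6 favoured pool A and 5 favoured pool B, and the shares over all tested genes, here and for the lists that follow, were 18.6% and 22.0%. Hyou1, a large HSP70 relative that resets BiP, was higher with pool A by 2.05, while Creld2 and Ero1a, both linked to disulfide formation, differed by -1.37 and -1.33. Of 9 genes of the unfolded protein response, 2 were higher with pool A, among them Atf4 (0.68), and 2 with pool B. The latter were the sensor kinase gene Eif2ak3 (PERK), at -2.21, and Atf6, at -0.83. Of 9 mitochondrial folding and protease genes, 1 favoured pool A and 4 favoured pool B, led by the import-motor gene Pam16 at -1.19, the unfoldase gene Clpx at -1.10 and the HSP70 exchange factor gene Grpel2 at -0.92. Of 6 heat shock factor genes, 3 were tested. Hsf1 and Hsf2 did not pass (0.12 and 0.093), and Hsbp1, a binding protein of heat shock factor, was higher with pool A by 0.77. The medians of the log2 fold changes of these 6 lists ran from -0.28 for the mitochondrial list to 0.30 for the co-chaperones.

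**Figure D5:**
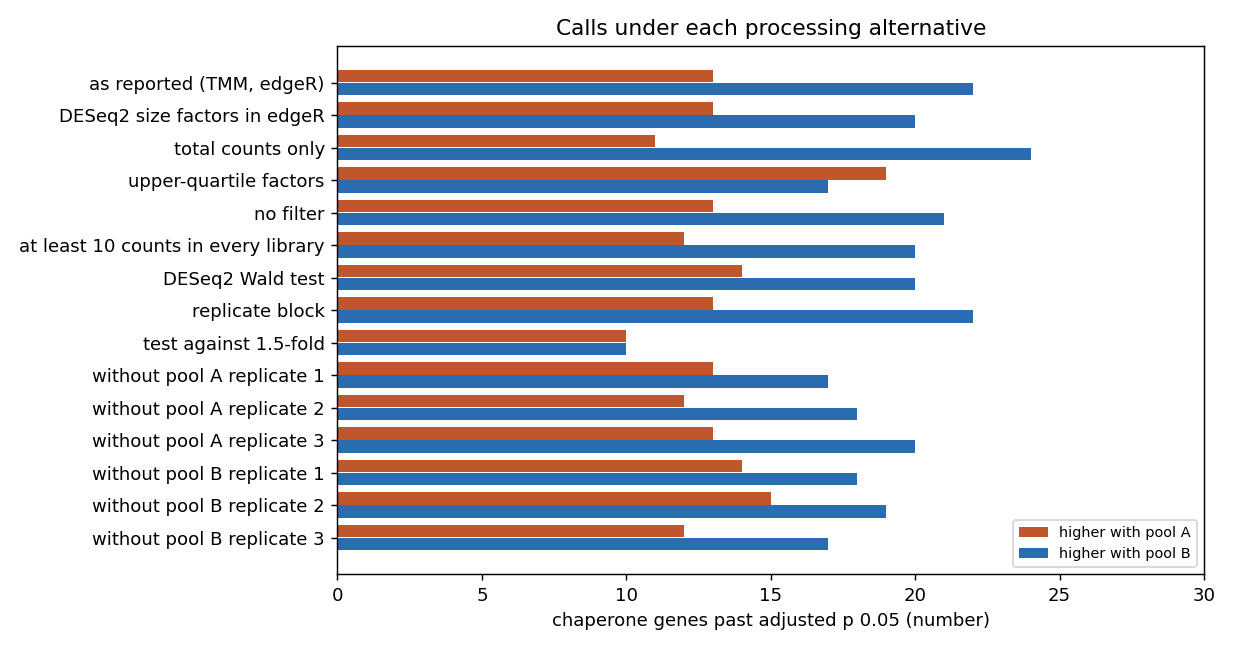
Number of chaperone genes past an adjusted p of 0.05 (horizontal axis, from 0) in each direction as reported and under 14 alternatives. Members higher with pool B number from 10 to 24 and those higher with pool A from 10 to 19, and upper-quartile factors give more genes with pool A than with pool B.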

How the data were processed

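Per the submitters' processing notes, reads were handled with STAR and featureCounts, without versions; the genome build, annotation and strand setting are not given in the sources used here. The deposited table holds raw counts per gene, and the authors' mean count per pool, a signal value left unused. Column names match the last part of the titles of the 6 samples.

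The whole table was fitted in edgeR 4.0.16 (R 4.3.3) with TMM scaling, edgeR's filter by group, the quasi-likelihood test with pool as the only term, and Benjamini-Hochberg adjustment over all tested genes (threshold 0.05, two-sided). CPM values and their ranges use total counts, while fold changes use TMM. Total counts alone moved the median log2 fold change of all tested genes by -0.14. The ratio of mean CPM therefore leans towards pool B beside the fold. For small changes the signs can differ, as for Dnajc13 and Pfdn4. Overlap of ranges on the TMM scale was not tested. SE is the size of the log2 fold change over the square root of F. The script was tested on simulated data. Alternatives were other scalings, filters, DESeq2 1.42.0, a replicate block, a 1.5-fold test and leaving out each library.

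Members, lists and motifs were chosen with earlier results of these data known. Values for each library are given for the 8 members with the largest changes per direction (past the threshold, ranges apart, mean of at least 10 counts), the member with the most counts per class, every tested HSP90, HSP110, mitochondrial chaperonin, CCT and prefoldin member, the heat shock pairs such as Hspa5 and Hsp90b1, and members whose call rests on a library; up to 3 genes per list are named. Markers of cells from outside the pituitary reached at most 5.65 CPM in sum. Same-numbered libraries did not deviate together (r of 0.041, -0.019 and 0.020), so replicate numbers were not taken as pairs. RefSeq tables for GRCr8 gave neighbours and promoters only. The target RNA of the pull-down is not reported here.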

Additional observations from a re-analysis of the deposited data

How the results depend on the processing

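Of 1023 refits of single members, 942 kept their side of the threshold, 61 lost the call and 20 gained it. No called member changed sign, while members that did not pass could, such as Hspa13 (-0.54 to 1.40 on the log2 scale). Of the 35 calls, 19 held under all 14 alternatives (9 higher with pool A, 10 with pool B), and 26 held with each library left out in turn. Bag5 is not among the 19 because it could not be fitted under the minimum of 10 counts. It passed wherever it was fitted. The cause of the changes was not tested, except that the 1.5-fold test is stricter and a left-out library lowers power by construction. Calls numbered 12 to 15 with pool A and 17 to 20 with pool B when a library was left out, and the 1.5-fold test left 10 with pool B. The members' median of -0.037 became -0.18 when total counts set the scale and 0.065 under upper-quartile factors.

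Small classes moved by single genes. Upper-quartile factors gave 2 HSP110 genes, 1 of the pair Hspbp1 and Hspbap1 and 1 mitochondrial chaperonin gene higher with pool A, and 1 HSP70 and 1 prefoldin gene higher with pool B. The 1.5-fold test gave 1 BAG and 0 class C J-domain genes with pool A, and 4 class C and 1 class A J-domain, 1 HSP70, 1 prefoldin, 0 mitochondrial chaperonin and 0 small heat shock protein genes with pool B. Total counts alone and the minimum of 10 counts in every library each gave 1 BAG gene with pool A, total counts gave 1 class C J-domain gene with pool A, and that minimum gave 0 small heat shock protein genes with pool B. Bag5 and Hspb7 could not be fitted under that minimum. With a library left out, the numbers were 1 to 2 BAG, 1 to 2 HSP110, 1 to 2 class C J-domain genes, 0 to 1 of the pair Hspbp1 and Hspbap1 and 0 to 1 mitochondrial chaperonin genes with pool A, and 1 to 2 HSP70, 1 to 2 prefoldin and 0 to 1 small heat shock protein genes with pool B.

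With the replicate block, 13 members favoured pool A and 22 favoured pool B. The small heat shock proteins then had 0 calls with pool B, since Hspb7 was lost (edgeR adjusted p 0.0519). The class B J-domain gene Dnajb7 was gained (0.0449). Since the numbers do not pair the libraries, this is no test of a pairing. Whether depth limits the calls of members with few counts was not tested.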
